A study of Gasterosteus aculeatus with 242 samples.

Results

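A set of 100 brain genes stood far higher in the fish of 1 family of threespine stickleback, family 31, than in fish of the other families. The set was chosen by measured values: fish were grouped by the leading number of their code, which was read as the family, and the 100 genes with the largest value of family 31 minus the mean of the other 15 families were taken, on a scale of log2(CPM + 1). CPM is the count of a gene per 1000000 counts of its library, and 1 unit on this scale is a 2-fold step for all but the lowest genes. The 100 members come from 8549 genes with a mean of at least 5 CPM, out of 22456 gene identifiers in the table. The table pairs no identifier with a gene symbol, and 0 of them matched the 52177 genes of the reference list, so the members are described by what they do across fish, and few are named.

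In the threespine stickleback, Gasterosteus aculeatus, care of nest and fry falls to the male. The study asked what a father's care leaves behind in the brain of his offspring. Fathers were wild-caught, and their offspring were either left with them (father-reared, Day 10 in the labels) or raised by hand (hand-reared, Day 0). At an age of 6 to 8 months, before maturity, some fish spent 10 minutes alone in a pool, an open-field test, and then met a moving model of a predatory sculpin; they stayed in the pool and their brains were taken 60 minutes after that. Full siblings taken from a home tank gave the baseline. One side of each brain, left or right, was read by 3′ tag sequencing, which counts messenger RNA by a stretch near the poly(A) tail. Usable father-reared fish numbered 57 at baseline and 61 after the open field, and hand-reared ones 64 and 59, in 8 families per rearing. Family 31 was father-reared and had 15 fish, 8 females and 7 males, 7 at baseline and 8 after the open field. The other 15 families hold 50 and 53 father-reared fish beside all the hand-reared ones (53 females and 50 males, and 57 and 66), and values for the other families are over all of these fish.

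Full siblings share their parents, and so share alleles that set how strongly a gene is expressed, and they can also share a tank and a father's behaviour. The design was one of half-siblings, in which families can share a parent, but which of them do, and which tanks the fish lived in, is not stated in the labels, so inheritance and a shared history cannot be told apart in a family difference. In a bulk sample of brain, more cells of a type cannot be told apart from more RNA per cell.

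Depth was alike across fish. All but 1 of the 242 libraries were usable and held between 706544 and 1529047 counts, with a median of 1007692, and the 15 libraries of family 31 held between 924167 and 1419084. The remaining one, of a hand-reared fish, had 2055 counts and was left out. Whether a tissue other than brain was present in a sample could not be read from marker genes, since the identifiers carry no names, and its part in the results was not tested.

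The member with the largest excess was ENSGACG00000009620. In family 31 its level in the 15 fish ran from 48.3 to 569 CPM with a median of 258 CPM. In the other families it ran from 0 to 249 CPM with a median of 4.16 CPM. No fish of another family exceeded the median of family 31, although 17 lay above its lowest fish. The mean of 269.627 ± 168.995 CPM (SD, n = 15) was 17.9 times the mean of 15.1 ± 34.6 CPM in the fish of the other families (SD).

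ENSGACG00000001816 came next. Its level ran from 43.8 to 470 CPM in family 31, with a median of 180 CPM, and from 0 to 226.46 CPM in the other fish, with a median of 4.11 CPM. Only 2 fish of other families exceeded the median of family 31. On the log2(CPM + 1) scale the excess of family 31 was 5.055 for the first gene and 4.70 for the second.

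The excess of the 100 members ranged from 1.84 to 5.055 on the log2 scale, with a median of 2.24. It was at least 3 for 15 members and under 2 for 24. These values chose the members and are given as a description, with no test. The last 5 members had an excess between 1.84 and 1.88, and the first 5 genes left out had one between 1.807 and 1.816, so the set has no natural edge at 100. The median excess over all 8549 genes was -0.07.

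The excess was broad. When each family in turn was set against the rest in the same way, 2.655% of the genes lay more than 1 log2 unit above the others in family 31, and between 0.164% and 0.444% in the other 15 families. Genes more than 1 log2 unit below the others made up 0.292% in family 31 and between 0.269% and 0.573% in the other families, or 25 genes against 23 to 49. The median excess of the 100 highest genes was 2.24 in family 31 and between 0.655 and 0.896 in the other families, although single genes reached up to 4.525 there. By these values family 31 stood apart in how many genes were higher, and its count of lower genes lay within the range of the other families. Family 31 was singled out with this contrast known, so the values are a description, with no test. The rest against which another family was set also held family 31, which lowers the excess of that family for genes high in family 31.

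The members spanned a wide range of abundance. Their mean over all fish ran from 5.23 to 1102 CPM, with a median of 19.8 CPM. The mean was under 10 CPM for 30 members and at least 100 CPM for 10. The most abundant member averaged 4266 ± 1234 CPM in family 31 (SD, n = 15) and 892 ± 620 CPM in the other families (SD). Together the members took up 2.03% ± 0.61 of all counts in a fish of family 31 (SD, n = 15), from 1.14% in the lowest fish to 3.10% in the highest. In the other families the mean share lay between 0.306% in family 04 and 0.824% in family 26.

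Every fish of family 31 was high. The mean log2(CPM + 1) over the 100 members was 6.26 ± 0.51 in family 31 (SD, n = 15), with the lowest fish at 5.47, the median at 6.29 and the highest at 7.11. All 15 lay above the highest hand-reared fish, which reached 5.40. For 93 of the 100 members every fish of family 31 exceeded the median of the fish of the other families, as for 3.83% of all genes. For 20 members no fish of another family exceeded the median of family 31, as for 0.374% of all genes. Both counts rest on the values that chose the members and are a description.

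The other father-reared families were not alike. Family 20 averaged 4.66 ± 0.79 (SD, n = 15), family 35 averaged 4.58 ± 0.60 (SD, n = 15) and family 26 averaged 4.36 ± 1.13 (SD, n = 16). Family 07 followed at 3.99 ± 0.60 (SD, n = 15). Families 19, 27 and 17 averaged 3.64 ± 0.45 (SD, n = 14), 3.64 ± 0.19 (SD, n = 12) and 3.565 ± 0.36 (SD, n = 16). The 8 hand-reared families lay close together, with family means between 3.51 and 3.87. Neighbours in this order, from family 20 down, differed by less than the spread of fish within them.

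Single fish of other families reached the level of family 31. The lowest fish of family 31 was exceeded by 4 fish of family 26, 3 of family 20 and 1 of family 35, and by no fish of the remaining 12 families. Family 26 was the most uneven. Its 16 fish ran from 3.04 to 6.09, a range of 3.05 log2 units, with a median of 3.88 well under its mean of 4.36. Family 27, also father-reared, was the most even and ran from 3.42 to 4.01.

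The excess of family 31 was present in every class of fish. These same fish chose the members, so the values are a description. Against the mean of the other families it was 2.29, 2.33 and 2.605 in plates 1, 2 and 3, as read from the leading digit of the library names. It was 2.47 on the left and 2.38 on the right side of the brain, and 2.39 in females and 2.48 in males.

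The gradation can also be described gene by gene. The place of family 31 in it follows from the choice of members. Family 31 was the highest of the 16 families for 99 members, and for 86 it led the next family by more than 1 log2 unit. That next family was father-reared for 94 members, most often family 20 (42 members), family 35 (38) and family 26 (10). Of the other 15 families 7 were father-reared, and the share over all genes was not computed for this count. Families 20 and 35 each lay above the whole range of the 8 hand-reared families for 89 members, where they did so for 8.21% and 14.2% of all genes. Family 26 did so for 83 members and 8.96% of all genes, and family 07 for 48 members and 13.2%. Families 27, 19 and 17 did so for 15, 11 and 8 members, near their shares of 11.5%, 8.83% and 7.7% of all genes.

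The members also rose and fell together among siblings of the other families, a variation within families that the choice did not use. After family means were removed, the correlation between 2 members over the fish of the other 15 families had a median of 0.44, and 72.5% of pairs exceeded 0.3. Over all pairs of the 8549 genes the median was 0.006 and 1.72% exceeded 0.3. Among hand-reared fish alone the median over member pairs was 0.25. Sex, side, exposure and plate were not removed, so differences by these are part of the correlations. The 2 values of a fish also share its library and depth, and siblings share a family, so these correlations are descriptions. Within family 31 the median over pairs was 0.64 in 15 fish. No value over all genes was computed within family 31 or in hand-reared fish alone, so 0.64 and 0.25 have no background beside them.

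Most members varied with the rest of the set. Against the mean of the other 99 members, a member had a median r of 0.65 over the fish of the other families, and 76 members exceeded 0.5. Here, too, only family means were removed, not sex, side, exposure or plate. This r was not computed for genes outside the set, so these values have no background beside them. The most abundant member was among the closest, with an r of 0.905. Only 5 members fell under 0.2. For those 5 the second-highest families were scattered (07, 25, 11 and 30 came next for 4 of them), and for 1 of them family 26 was above family 31: an order of families unlike that of the set.

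A further 4 members were high in some fish and near 0 in others, within family 31 and over the other fish. Their SD over the 15 fish of family 31 lay between 3.55 and 4.45 log2 units, against at most 2.79 for any other member. These 4 were all over 100 CPM in 7 of the 15 fish of family 31 and all under 10 CPM in 5. In the other families they were all over 100 CPM in 63 fish. Hence 46.7% of family 31 and 27.9% of the other fish were high, and 33.3% and 55.8% were low. Families 11 and 39, both hand-reared, had 44.4% and 42.9% of their fish high, and families 07 and 20, both father-reared, had 40.0%. The lowest share was 6.25%, in hand-reared family 04. Whether families differ in this share was not tested. The 4 members tracked each other with r between 0.94 and 0.98 in the other families. Against the mean of all other members, each of the 4 had an r between 0.334 and 0.345. That mean includes the rest of the 4, which raises this r. How closely the 4 followed only the members outside the 4 was not computed. Another 9 genes, none of them a member, followed these 4 with an r over 0.8. The mean CPM of the 4 members in family 31 was 1.49 to 1.69 times that of the other fish. The 4 members and the 5 before them were singled out after their values were seen.

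Most members were higher in males than in females. By edgeR's quasi-likelihood test with family as a block, 81 of the 100 members were called higher in males at an adjusted p under 0.05, where 8.15% of all 8549 genes were, and 2 were called higher in females, where 4.85% of all genes were. The median log2 fold change was 0.42 over the members and 0.01 over all genes. Because the members vary together, the 81 calls are not 81 independent results. The mean over the members was higher in males in 16 of 16 families, by 0.05 in family 22 to 0.85 in family 26.

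Sex differences were smaller than the family difference, whose size follows from the choice of members. In family 31 the mean over the members was 6.06 ± 0.44 in females (SD, n = 8) and 6.485 ± 0.52 in males (SD, n = 7), and the sexes overlapped, with females from 5.47 to 6.70 and males from 5.55 to 7.11. In the other families females averaged 3.70 ± 0.63 and males 3.96 ± 0.64 (SD). ENSGACG00000000138 went from a median of 5.60 CPM in females of the other families to 9.63 CPM in males, and in family 31 from 34.8 CPM in 8 females to 62.3 CPM in 7 males. Its log2 fold change, male minus female, was 0.85 (SE 0.11, adjusted p = 8.2e-12 by edgeR), and it was higher in males in 16 of 16 families. ENSGACG00000000129 had a median of 3.32 CPM in females and 5.20 CPM in males of the other families, and of 21.7 and 42.4 CPM in family 31. The sexes overlapped for both genes. Its log2 fold change was 0.90 (SE 0.12, adjusted p = 1.1e-11 by edgeR), also with 16 of 16 families.

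The genes with the largest family excess were among the 81, less firmly. ENSGACG00000009620 was higher in males by 0.66 (SE 0.19, adjusted p = 0.0062 by edgeR), in 12 of 16 families, and the call was lost in 6 of 13 alternative analyses. ENSGACG00000001816 was higher in males by 0.55 (SE 0.18, adjusted p = 0.028 by edgeR), in 14 of 16 families, and the call was lost in 8 of 13. Both kept their direction in all 13.

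The other 2 calls went the opposite way. ENSGACG00000010244 ranged from 52.1 to 88.6 CPM in the 8 females of family 31, with a median of 71.4 CPM, and from 18.9 to 39.5 CPM in the 7 males, with a median of 29.2 CPM. The sexes of family 31 did not overlap. In the other families its median was 33.5 CPM in females and 3.73 CPM in males, and 14 of these fish had 0 counts. The log2 fold change was -1.11 (SE 0.15, adjusted p = 5.2e-11 by edgeR), but males were lower in 14 of 16 families rather than in all, and the gene followed the rest of the members with an r of -0.14. ENSGACG00000005950 had a median of 10.3 CPM in females and 5.75 CPM in males of the other families, and of 36.4 and 28.6 CPM in family 31. Its log2 fold change was -0.59 (SE 0.09, adjusted p = 3e-09 by edgeR), lower in males in 16 of 16 families.

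The sex difference had the same direction in each plate and in both rearing groups. In plate 1 alone 15 members were called higher in males (1.66% of all genes), in plate 2 alone 41 (2.85%) and in plate 3 alone 5 (1.11%), and the median log2 fold changes of the members were 0.33, 0.48 and 0.40. In hand-reared fish alone 34 members were called higher in males (2.97% of all genes), with a median of 0.32, and in father-reared fish alone 64 (5.01%), with a median of 0.505. Without family 31, 71 were called higher in males (6.95% of all genes), with a median of 0.42, and 51 were called in father-reared fish without family 31, in either direction (7.8% of all genes). Each of these fits has fewer fish than the fit over all families.

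Whether the sex difference was of another size in family 31 was tested as the difference itself. No member was called, and 0.0% of all genes were (edgeR; 4 members and 5.92% of all genes at an unadjusted p under 0.05, and 0 members called by DESeq2 and by limma-voom). The median difference over the members was -0.09, with a median SE of 0.33. Fish were the replicates in this test, since family 31 is 1 family, and differences between other families in the size of the effect are not in its error.

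After the open field, 1 member was called higher. In the other families ENSGACG00000007282 had a median of 5.52 CPM at baseline and of 11.2 CPM after the open field. In family 31 it ran from 5.95 to 36.9 CPM in the 7 baseline fish, with a mean of 21.6 ± 11.1 CPM (SD), and from 33.8 to 65.9 CPM in the 8 open-field fish, with a mean of 50.4 ± 11.8 CPM (SD). The groups of family 31 overlapped only between 33.8 and 36.9 CPM. The log2 fold change was 0.95 (SE 0.11, adjusted p = 2.1e-13 by edgeR), in 16 of 16 families. It was the only member called as higher, where 0.503% of all genes were. No member was called lower by edgeR, DESeq2 or limma-voom, and of 7 members at an unadjusted p under 0.05 by edgeR, 6 were higher and 1 was lower, near the 6.07% of all genes at that level. The median log2 fold change was 0.09 over the members and 0.00 over all genes, and 89 of 100 members were above 0. With sibling pairs as the block, 94 members were above 0. In that fit 13 were at an unadjusted p under 0.05 by edgeR, all of them higher, where 6.63% of all genes were in either direction. Because the members vary together, these are not independent results.

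For exposure the log2 fold change of ENSGACG00000009620 was 0.25 (SE 0.19, adjusted p = 0.96 by edgeR) and that of ENSGACG00000001816 was -0.03 (SE 0.18, adjusted p = 1 by edgeR). The mean over the members was higher after the open field in 8 of 16 families. In family 31 it was 6.05 ± 0.48 at baseline (SD, n = 7) and 6.44 ± 0.49 after the open field (SD, n = 8), an excess over the other families of 2.24 and 2.60. The 7 baseline fish of family 31 were 5 females and 2 males and the 8 open-field fish 3 females and 5 males, and sex is a term in the tests but not in these means. The response of family 31 was not shown to differ from that of the other families. No member was called for that difference, as 0.0% of all genes (edgeR; 1 member and 3.88% of all genes at an unadjusted p under 0.05, DESeq2 0, limma-voom 0), and the median over the members was 0.14 with a median SE of 0.34.

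Most members lay slightly higher on the right side of the brain than on the left, and 1 of them passed the test. In this difference, 95 of 100 members were above 0, and the median log2 fold change was 0.21 against 0.00 over all genes. At an unadjusted p under 0.05, 67 members were higher on the right, where 4.94% of all genes were. Because the members vary together, these are not 67 independent results. Fish were the replicates, so differences between families in the size of the side difference are not in the error. After adjustment 1 was called, where 0.0936% of all genes were. This was ENSGACG00000011698, whose median in the other families was 36.9 CPM on the left and 40.8 CPM on the right. In family 31 its lowest value was 75.7 CPM among the 7 left sides and 74.4 CPM among the 8 right sides, and its highest, 328 CPM, was on the right. Its log2 fold change was 0.24 (SE 0.06, adjusted p = 0.044 by edgeR), higher on the right in 12 of 16 families, with overlapping sides, and the call was lost in 9 of 13 alternative analyses, among them the one without family 31 (0 members called). The mean over the members was higher on the right in 10 of 16 families, from -0.31 in family 35 to 1.20 in family 20. With right minus left, the log2 fold change of ENSGACG00000009620 was 0.67 (SE 0.19, adjusted p = 0.12 by edgeR) and that of ENSGACG00000001816 was 0.70 (SE 0.18, adjusted p = 0.065 by edgeR), and for both the widest gap was in family 20, at 2.79 and 2.83 log2 units.

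The side difference was uneven across plates and rearing. The median over the members was 0.17, 0.05 and 0.47 in plates 1, 2 and 3 alone, and 0.03 in hand-reared against 0.35 in father-reared fish, a difference between rearing groups that was not tested. For side, too, family 31 was not shown to differ: no member was called, as 0.0% of all genes (edgeR; 0 members and 3.57% of all genes at an unadjusted p under 0.05, DESeq2 0, limma-voom 0), with a median of -0.11 and a median SE of 0.31.

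With family 31 left out, the remaining 7 father-reared families were compared with the 8 hand-reared families, with the family as the replicate, because rearing was applied to whole families. Which families share a parent is not stated in the labels, so the test took all families as independent. Father-reared families averaged 4.06 ± 0.47 over the members (SD, n = 7), and hand-reared ones 3.63 ± 0.12 (SD, n = 8). The groups overlapped, with father-reared families from 3.565 to 4.66 and hand-reared families from 3.51 to 3.87. By edgeR 0 members were called, as 0.0% of all genes. At an unadjusted p under 0.05, 78 members were higher in father-reared families, where 3.36% of all genes were. Because the members vary together, these are not 78 independent results. The minimum of 5 CPM was taken over all fish, and 8 members were under it in the other 15 families and were tested only because family 31 was high; 7 of these 8 and 71 of the other 92 make up the 78. DESeq2 called 8 members, all higher in father-reared families, where 0.164% of all genes were, and limma-voom called 0. The median log2 fold change was 0.63 over the members and 0.00 over all genes. With the share of males in a family as a covariate, 64 members were at an unadjusted p under 0.05 by edgeR, all higher in father-reared families. In that fit 4.69% of all genes were at this level in either direction, the median over the members was 0.59, and 0 members were called.

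The families behind this comparison can be seen in ENSGACG00000009620. Its mean level in the father-reared families 20, 26, 35 and 07 was 62.9, 52.3, 36.2 and 13.7 CPM, and in families 17, 27 and 19 it was 6.08, 4.28 and 2.90 CPM. In the hand-reared families it was 11.8 CPM in family 25, 6.06 CPM in family 11, 5.61 CPM in family 22, 5.57 CPM in family 04 and 4.92 CPM in family 40. Families 39, 30 and 32 had 3.99, 3.58 and 3.545 CPM. By mean level, families 17 and 27 thus lay among the hand-reared families and family 19 below them. The other 4 lay above all of them. Medians were less far apart, at 39.3, 25.0, 8.57 and 5.93 CPM in families 20, 35, 26 and 07. The highest fish of family 07 reached 97.6 CPM. The median was 5.10 CPM in family 17, and among hand-reared families at most 4.98 CPM, in family 11. In hand-reared family 25 it was 3.56 CPM, with 1 fish at 87.7 CPM. The log2 fold change of ENSGACG00000009620, father minus hand, was 2.21 (SE 0.60, adjusted p = 0.43 by edgeR). That of ENSGACG00000001816 was 2.39 (SE 0.55, adjusted p = 0.43 by edgeR, and 0.014 by DESeq2).

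The rearing difference of the members kept its direction with any 1 of the 15 families left out, with 0 members called by edgeR each time and medians from 0.525 without family 20 to 0.74 without family 19. Families 20, 35 and 26 were known to be high before the comparison was chosen. Each such fit kept more than 1 of them, so it could not show whether the difference rests on these families. The median over the members was 0.67, 0.87 and 0.29 in plates 1, 2 and 3 alone. It was 0.67 in baseline and 0.62 in open-field fish, and 0.53 in females and 0.81 in males. At an unadjusted p under 0.05, 12 members were higher in father-reared families in plate 3 alone (1.35% of all genes), 80 in plate 1 alone (3.87%) and 83 in plate 2 alone (3.73%). With family 31 back in, 8 families against 8, the median was 1.07, which the choice of members raised, and edgeR again called 0 members.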

How the data were processed

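Counts were deposited by the authors as whole numbers per Ensembl gene, library and lane, with STAR 2.2.3a, HTSeq 0.9.1 and FastQC 0.11.8 named by the submitters' processing notes. Build, annotation, strand setting and duplicate removal: not given in the sources used. Near-identical, overlapping or antisense genes are therefore uncertain. The 6 lanes of a library were summed (chi-square between lanes at most 1.09 per degree of freedom), libraries under 500000 counts were dropped, and CPM was computed from library totals.

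The members and the comparisons were chosen with earlier results of these data known, and the contrast between family 31, 3 further father-reared families and the rest was among those results.

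Tests used edgeR 4.0.16 (R 4.3.3; TMM scaling, quasi-likelihood F-test, Benjamini-Hochberg over all 8549 genes with a mean of at least 5 CPM, so that every member was tested), with family, sex, side, plate and exposure as terms. Rearing was tested on counts summed per family, and as an alternative also with the share of males in a family as a covariate. Standard errors come from the fold change and the square root of F. Alternatives were DESeq2 1.42.0, limma-voom 3.58.1, other filters, no plate term, single plates, subsets of fish and sibling pairs, which the series' design describes, as blocks. Which fish form a pair was read from their codes, as a baseline and an open-field fish of the same family and number. The procedure was also run on simulated counts with a fixed dispersion, no variation between families and no correlation between genes. That run could not show how the tests deal with such variation or correlation. Identifiers were named by fixed rule, at most 2 per direction and comparison: the largest excess, then the smallest adjusted p among members called. Fish are separate animals and were the replicates in all tests but that of rearing. Differences between families in the size of an effect are therefore not in the error of those tests. Gene lists and cell markers need symbols and were not used.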

Additional observations from a re-analysis of the deposited data

Results flagged for a closer look

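Among 35 sets of 4 to 10 families or fish, 6 held a value far from the rest by Dixon's test at the 95% level, where chance gives about 1 in 20 sets. In 5 of them family 31 was the highest of the 8 father-reared families, and since its difference from the other families chose the members, these flags describe the choice. The mean log2(CPM + 1) over the members was 6.26 in family 31 and 4.66 in the next family, and the members took up 2.03% of counts there and 0.824% in the next. Single members did the same: ENSGACG00000007282 stood at 5.03 (next family 3.67), ENSGACG00000000129 at 4.93 (3.41) and ENSGACG00000011698 at 7.26 (5.93) on the log2(CPM + 1) scale. The remaining flag concerns depth, not the members: hand-reared family 11, which had 18 fish, held 18857269 counts in all, and the next hand-reared family held 16209713.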

How the results depend on the processing

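Of the 100 members, between 69 and 100 were again among the top 100 when a step of the choice was changed: scaling, pseudocount, filter, medians, one sex, exposure, side or plate, or a fish of family 31 left out (96 to 98). Over all families 83 of the 100 members were called for sex, where 1112 of all 8549 genes were. In plates 1, 2 and 3 alone 17, 43 and 5 of the 100 were called, where 421, 529 and 350 of all genes were. The share in plate 3 was thus near that of all genes. In hand-reared fish alone 36 were called, where 553 of all genes were. In father-reared fish without family 31 51 were called, where 667 of all genes were. These fits hold fewer fish, and those by rearing were chosen after seeing the data. The 1 member called for side became 2 by limma-voom and 3 without a plate term, and 0 by DESeq2, without a filter, in each plate alone, without family 31 and in each rearing group; the cause was not tested. For rearing without family 31, DESeq2 called 8 members where edgeR called 0. Sibling pairs as a replicate block left 1 member called for exposure, and counts for the 3 differences between family 31 and the others stayed at 0 in all 6 alternatives each. With about 1000000 counts per fish, members near 5 CPM rest on few counts per library.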
